A study of Homo sapiens with 10 samples.

Results

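The 283 gene clusters described here are those whose transcripts averaged 9000 nt or more over the 10 libraries and whose mean level was at least 2 CPM (counts scaled to a library sum of 1000000), out of 31848 clusters in all. A cluster is a group of transcripts counted as 1 gene, and its length is the mean of its transcripts weighted by their abundance. Both values that chose the members were averaged over all libraries rather than set by a contrast between groups, and they are given as a description. A member near the level limit can still owe its place to a group where it was high. Of 366 clusters at this length, 83 fell below the level limit. All 283 members also passed the filter on low counts applied to the whole table, which kept 13241 clusters.

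RNA was poly(A)-selected and sequenced from HEK293T cells, an established human embryonic kidney line, after lipid transfection. Each of the activator groups VP64, VPR, SAM and Suntag received that activator built on dCas9, a Cas9 that binds DNA without cutting it, together with a guide RNA directed to HBG1, a fetal globin gene. Guide Only Control libraries bear that name and no further detail. Each of the 5 groups holds 2 libraries, and since the labels do not say that these came from separate cultures, p-values measure the spread between libraries, which may be technical. The level of HBG1 was not analysed here, because the files pair cluster numbers with transcript identifiers and not with gene names, so the members are given by number or by transcript length.

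VP64 carries tandem copies of a short viral activation domain, and VPR joins it to the activation domains of p65 and Rta. SAM adds p65 and HSF1 domains through hairpins in the guide RNA, and Suntag is a peptide array that gathers many copies of an activation domain. Very long human messages commonly code for giant cytoskeletal, adhesion, scaffold and chromatin proteins or carry extended untranslated ends. With random priming, a long transcript gives more fragments per molecule than a short one. Levels in CPM count fragments, while TPM, the abundance per unit of length, is the scale on which one cluster can be set against another.

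The members were mostly moderate in fragment counts and low in abundance per length. Their mean CPM had a median of 30.0 (quartiles 15.7 and 57.1), against 26.8 over all tested clusters, whereas their mean TPM had a median of 5.58 (quartiles 3.07 and 10.5), against 18.4 over all tested clusters. Of the members, 244 averaged 10 CPM or more and 35 averaged 100 CPM or more, and no member was at 0 in any library. By length, 102 lay between 9000 and 10000 nt, 105 between 10000 and 12000 nt and 76 above that, including 7 over 20000 nt. The members just inside the length limit had 9011, 9031 and 9047 nt, and the clusters just outside it 8981, 8988 and 8998 nt. At the level limit, the members just inside had 2.27, 2.29 and 2.33 CPM and the long clusters just outside 1.70, 1.73 and 1.90 CPM.

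Most members held several transcripts, so their length itself was an estimate. A single transcript made up 57 members, and 37 had whole counts in all 10 libraries (within 0.01), which is 13.1% of members against 20.3% of all tested clusters. A count that is not whole was divided by the authors' counting between clusters whose reads could not be told apart. The length of 115 members varied between libraries by over 5% of its mean, and 55 lay below 9000 nt in at least 1 library. The most variable was a cluster of 30 transcripts, averaging 10349 nt and 2.36 CPM, whose length ran from 2748 to 13498 nt. Next came a cluster of 3 transcripts at 2.49 CPM that ran from 6875 to 18212 nt, and one of 7 transcripts at 8.50 CPM that ran from 5770 to 14699 nt. In 3 places a pair of members stood next to each other in the authors' list, among them clusters of 37027 nt (4.81 CPM) and 19280 nt (263 CPM), neither of them called in any comparison.

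The longest member, a single transcript of 205012 nt, shows the gap between the scales. For it, VP64 libraries had 53.9 and 46.2 CPM, VPR libraries 52.5 and 47.6, SAM libraries 74.6 and 60.7, Suntag libraries 48.2 and 49.0, and Guide Only Control libraries 58.0 and 60.6. Its mean abundance was 0.54 TPM. Both SAM libraries were above both control libraries, and the libraries of VP64, VPR and Suntag lay below both controls, but edgeR called no difference against the control. The members of 91671 nt and 81749 nt averaged 13.5 and 3.99 CPM, or 0.295 and 0.097 TPM, and were not called against the control in any activator.

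A single member, the cluster with the most fragment counts of the whole series, outweighed all other long clusters together in counts. It is 1 transcript of 13513 nt with counts that are not whole, and its share of all counts was 9.63% and 8.91% for VP64 libraries, 9.01% and 8.81% for VPR libraries, 8.70% and 8.31% for SAM libraries, 9.05% and 7.51% for Suntag libraries, and 7.70% and 7.87% for the Guide Only Control. In VP64, VPR and SAM both libraries exceeded both controls, while Suntag replicate 2 lay below them. It was called higher in VPR (log2 change 0.27 ± 0.07 SE, edgeR quasi-likelihood adjusted p = 0.0393) and not called in VP64 (0.31 ± 0.07, adjusted p = 0.0595), SAM (0.10, adjusted p = 0.463) or Suntag (0.13, adjusted p = 0.435). The call in VPR was kept in 5 of 10 fits that left out a library, at 0.26 to 0.31, and ended without either VPR library, either control library or SAM replicate 2. With the length trend removed it was 0.52 (adjusted p = 0.00193), and on log2(TPM + 1) with limma 0.10 (adjusted p = 0.531). The larger value with the trend removed follows from long clusters lying lower in VPR as a set, so it is no check of the call. The value in VP64 was called with DESeq2 (0.31, adjusted p = 0.016). After it, the members with the most counts had 9720, 13505 and 9669 nt and averaged 709, 492 and 479 CPM, with no call against the control in any activator. The other 282 members together made up 1.54% and 1.47% of counts for VP64 libraries, 1.25% and 1.34% for VPR libraries, 1.63% and 1.53% for SAM libraries, 1.37% and 1.41% for Suntag libraries, and 1.56% and 1.57% for the Guide Only Control. VPR and Suntag thus lay below both controls on this sum, as did VP64 by a smaller margin, and SAM fell on both sides of them.

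Depth ran from 3316534 to 7447949 expected counts per library, and all values here are relative to it. Fragments, whose mean length follows from the gap between transcript length and effective length, were longer in the controls (129 and 133 nt) than in the activator libraries (89.8 to 123 nt), and the part of either in the results was not tested. In bulk RNA, fewer cells making a transcript and less of it per cell cannot be told apart.

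As a set, the long clusters sat lowest in VPR, next in Suntag, and highest in SAM. For each library the deviation of a cluster's log2(CPM + 0.5) from its mean over the 10 libraries was taken, and the median over the 283 members averaged 0.04 ± 0.04 for VP64, -0.18 ± 0.09 for VPR, 0.13 ± 0.05 for SAM, -0.06 ± 0.02 for Suntag and 0.09 ± 0.004 for the Guide Only Control (SD, n = 2 each). VPR replicate 1 was the lowest library at -0.25 and replicate 2 followed at -0.12. Over all tested clusters at the level limit the same averages were -0.02 for VP64, -0.04 for VPR and 0.05 for SAM. They were 0.01 for Suntag and 0.04 for the control, so SAM was highest and VP64 below the control there too. Among the members, VP64 differed from the control by -0.06, VPR by -0.27, SAM by 0.04 and Suntag by -0.15. After TMM scaling VP64 differed by 0.005, VPR by -0.20, SAM by 0.01 and Suntag by -0.12, so the sign for VP64 turned while the others held. Among neighbours in this order, SAM overlapped the control libraries, VP64 lay below them before scaling by TMM, Suntag lay below VP64, and VPR differed from Suntag by less than the gap between the VPR libraries. All activators share the same control libraries. Within VPR, members also differed more between the replicates than in the control, with a median absolute log2 difference of 0.175 against 0.139 in the control, and replicate 1 was lower by a median of 0.13.

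**Figure D1:**
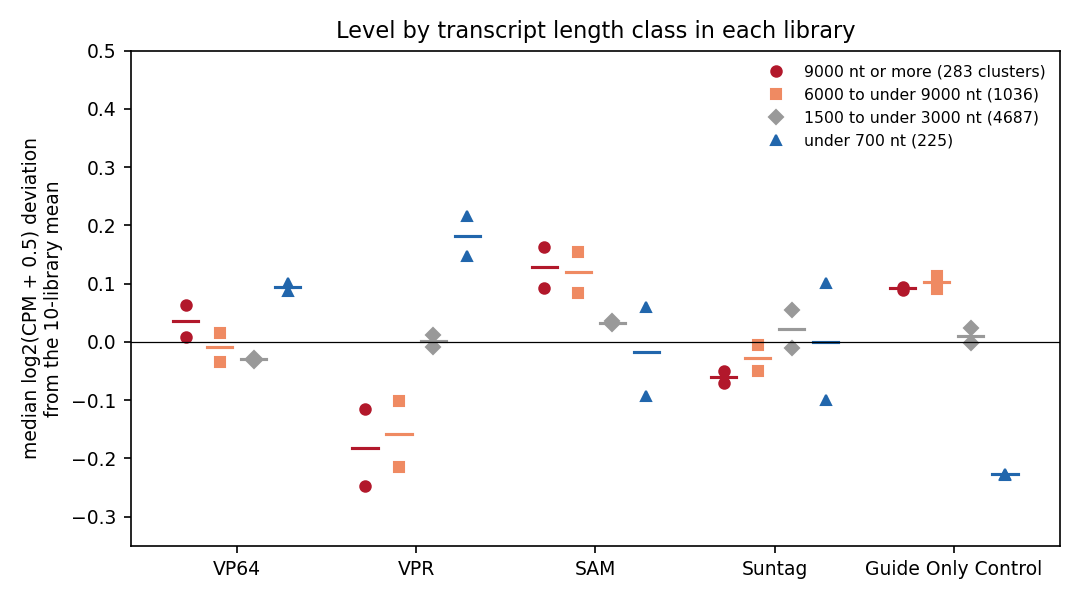
Median deviation of log2(CPM + 0.5) from the 10-library mean (y axis) for clusters of 4 length classes at the level limit, by group (x axis); each point is a library and each bar the mean of 2. The 283 long clusters (red circles) lie at -0.25 and -0.12 in VPR and at 0.09 in both control libraries, and clusters of 6000 to 9000 nt run close to them.

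Against the Guide Only Control, VPR gave the most calls among the long clusters: 31 of 283 were called lower and 2 higher. That is 11.0% lower, against a background of 2.02% of all tested clusters, and 0.707% higher, against 4.58%. The median log2 change of the members was -0.22, compared with -0.02 over all tested clusters, and 233 of 283 were below 0. Values of both VPR libraries lay under both controls for 188 members (66.4%, background 37.1%) and above them for 9 (3.18%, background 18.7%). The next shorter class gave values of the same kind: of 1036 clusters of 6000 to 9000 nt, 77 (7.43%) were called lower in VPR, with a median of -0.20. In that class both VPR libraries lay under both controls for 67.1% and above them for 3.19%. No test of the difference between the length classes was made.

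The members called lower in VPR had modest changes, from -0.87 to -0.30 with a median of -0.47, and a median length of 10028 nt. Of the 31, 4 had whole counts and 7 held a single transcript, shares similar to the 37 and 57 among all 283 members. More calls were made among members with more counts: when the members were ranked by CPM and divided evenly, the highest group held 20 of these calls, the middle group 8 and the lowest 3, with median log2 changes of -0.23, -0.21 and -0.23. Divided by length, 15 calls fell among members of 9000 to 10000 nt, 13 among those of 10000 to 12000 nt and 3 among longer ones, with medians of -0.20, -0.22 and -0.23. The calls rested on single libraries too: the total of 33 became 3 without VPR replicate 1 or without control replicate 2, 9 without control replicate 1, and 43 without Suntag replicate 2. When each library's smooth trend of level with transcript length was taken out before the test, 3 members were called, all of them higher, 2 of which were among the 33. Shares over all tested clusters in these other fits are not given here. Whether the changes in count are particular to the long clusters was thus not tested.

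**Figure D2:**
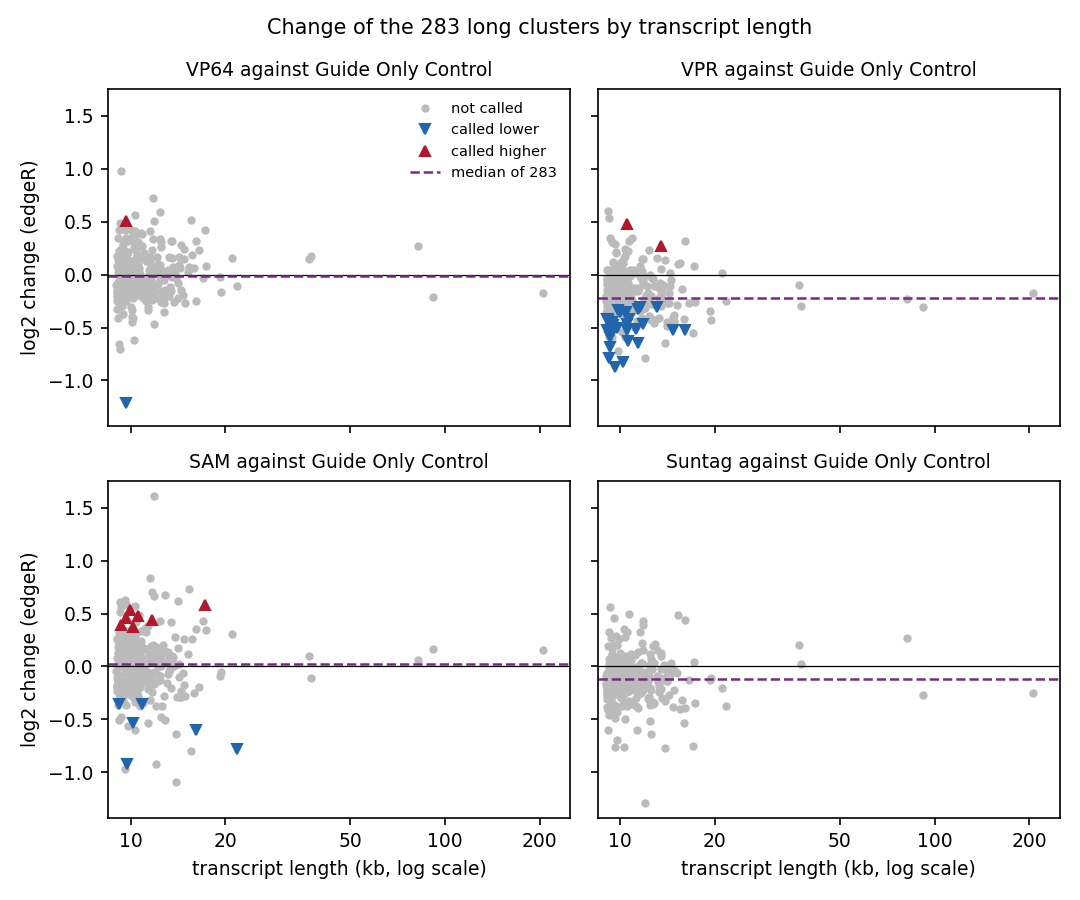
edgeR log2 change against the Guide Only Control (y axis) for the 283 long clusters by transcript length (x axis, log scale), 1 panel per activator; triangles are calls at an adjusted p under 0.05 and the dashed line is the median. In VPR the median is -0.22 and 31 triangles point down, and in SAM 7 point up and 6 down around a median of 0.03.

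The largest change among the clusters lower in VPR was that of cluster 22065, a single transcript of 9648 nt with counts that were not whole. In VP64 libraries it had 11.5 and 11.5 CPM, in VPR libraries 12.6 and 15.7, in SAM libraries 21.7 and 25.1, in Suntag libraries 12.9 and 18.9, and in Guide Only Control libraries 20.2 and 34.2. The groups VP64, VPR and Suntag lay below both controls, SAM lay between them, and the controls themselves differed by more than any activator pair. The cluster fell by 1.21 ± 0.24 on the log2 scale in VP64 (edgeR adjusted p = 0.0331) and by 0.87 ± 0.22 in VPR (adjusted p = 0.0286). The values in Suntag (-0.76, adjusted p = 0.0934) and SAM (-0.26, adjusted p = 0.522) were not called. DESeq2 gave this cluster no adjusted p against the control, so it did not check the calls in VP64 and VPR. Both calls ended without control replicate 2, where the changes were -0.77 and -0.42, without either library of the activator itself, and with the length trend removed (adjusted p = 0.0719 and 0.19).

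A cluster of 10203 nt and 4 transcripts gave the smallest adjusted p among those lower in VPR. The VP64 libraries measured 215 and 168 CPM, VPR libraries 136 and 149, SAM libraries 211 and 166, Suntag libraries 183 and 256, and Guide Only Control libraries 258 and 277. All activator libraries were below both controls, VPR furthest. It fell by 0.83 ± 0.14 in VPR (edgeR adjusted p = 0.00356) and by 0.54 ± 0.14 in SAM (adjusted p = 0.04). The call in VPR was kept in 9 of 10 fits that left out a library, all but that without VPR replicate 1, and the call in SAM in 4. The call in SAM also ended with DESeq2 (adjusted p = 0.115), with the replicate number as a block (adjusted p = 0.055) and with limma on log2(TPM + 1) (adjusted p = 0.173). With the length trend removed the changes were -0.61 in VPR (adjusted p = 0.0507) and -0.55 in SAM (adjusted p = 0.028). Its counts were not whole. Summed with those of a 5242-nt cluster 2 places on in the list, they came within 0.03 of whole numbers, an addition chosen after the values were seen. That is close to whole but outside the 0.01 used for whole counts here. The sum averaged 208 ± 27.2 CPM in VP64 libraries. The averages were 160 ± 7.14 CPM with VPR, 205 ± 24.0 CPM with SAM and 227 ± 41.7 CPM with Suntag, against 273 ± 18.5 for the Guide Only Control (SD, n = 2 each). The ratios to the control were 0.763 for VP64, 0.587 for VPR, 0.753 for SAM and 0.831 with Suntag, so VP64, which was not called, stood near SAM.

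Among the 4 members called lower in VPR with whole counts in every library was a single transcript of 16122 nt. The VP64 libraries gave 31.8 and 29.9 CPM, VPR libraries 25.2 and 25.5, SAM libraries 26.5 and 25.3, Suntag libraries 27.2 and 29.9, and Guide Only Control libraries 36.9 and 39.9. All 8 activator libraries lay below both controls, and within groups the libraries were close. It fell by 0.53 ± 0.11 in VPR (edgeR adjusted p = 0.013) and by 0.60 ± 0.12 in SAM (adjusted p = 0.0129), while Suntag (-0.40, adjusted p = 0.0932) and VP64 (-0.25, adjusted p = 0.338) were not called. Of 10 fits that left out a library, 7 kept the call in VPR and 6 that in SAM, and with DESeq2 neither passed (adjusted p = 0.081 and 0.0744). With the length trend removed it was called in SAM (-0.64, adjusted p = 0.00942) and not in VPR (-0.27, adjusted p = 0.319).

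The member called higher in VPR besides the one with the most counts was a single transcript of 10536 nt, whose counts were not whole either. VP64 libraries stood at 118 and 111 CPM, VPR libraries 127 and 127, SAM libraries 135 and 138, Suntag libraries 118 and 117, and Guide Only Control libraries 89.7 and 102. Every activator library exceeded both controls. The rise was 0.48 ± 0.09 in VPR (edgeR adjusted p = 0.00555) and 0.48 ± 0.09 in SAM (adjusted p = 0.0086), and the values of 0.31 in VP64 (adjusted p = 0.118) and 0.32 in Suntag (adjusted p = 0.0828) were not called. Since members tended to lie lower in VPR, taking out the length trend moves this cluster further up there and is no check of its call. Its call in VPR was kept with the length trend removed (0.70, adjusted p = 0.00193) and in 9 of 10 fits that left out a library, all but that without control replicate 1, and the call in SAM in 7.

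SAM against the Guide Only Control gave calls in both directions among the long clusters: 7 were called higher (2.47%, background 2.27%) and 6 lower (2.12%, background 2.94%). These shares are near the background, and the median log2 change of 0.03 was close to the 0.01 of all tested clusters. The higher members changed by 0.37 to 0.58 and the lower ones by -0.92 to -0.35. The 13 calls became 0 without SAM replicate 1, 1 without SAM replicate 2 or without control replicate 1, 4 without control replicate 2 and 18 without Suntag replicate 1. With the length trend removed 15 members were called, 12 of them among the 13.

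Cluster 24851, of 17227 nt and 3 transcripts, had the largest rise among the members called in SAM. For this cluster VP64 libraries had 64.1 and 57.3 CPM, VPR libraries 51.9 and 44.5, SAM libraries 79.5 and 66.5, Suntag libraries 44.8 and 51.4, and Guide Only Control libraries 50.4 and 45.3. SAM libraries were the highest of the series, VP64 came next above both controls, and VPR and Suntag overlapped the controls. It rose by 0.58 ± 0.12 in SAM (edgeR adjusted p = 0.0173), against values of 0.42 in VP64 (adjusted p = 0.124), 0.08 in VPR (adjusted p = 0.755) and 0.05 in Suntag (adjusted p = 0.908). The call in SAM ended without SAM replicate 1 or either control library.

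Cluster 13217, of 9935 nt and 2 transcripts, was called in SAM and overlapped the controls in the other activators. VP64 libraries gave it 55.1 and 62.1 CPM, VPR libraries 46.9 and 56.1, SAM libraries 90.8 and 77.9, Suntag libraries 59.1 and 56.3, and Guide Only Control libraries 58.4 and 55.8. Both SAM libraries lay above every other library, with a rise of 0.53 ± 0.12 (edgeR adjusted p = 0.0175), and the other log2 values were 0.09 in VP64, -0.06 in VPR and 0.05 in Suntag. This call also ended in each fit that lacked a SAM or control library, and over all 10 such fits the change stayed between 0.44 and 0.63 with an adjusted p of up to 0.151.

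Cluster 13532, of 9769 nt and 2 transcripts, had the largest fall among the members called in SAM. VP64 libraries measured 27.8 and 22.0 CPM, VPR libraries 20.4 and 18.0, SAM libraries 14.9 and 15.8, Suntag libraries 21.3 and 19.9, and Guide Only Control libraries 28.3 and 28.7. Every activator library was below both controls and the SAM libraries were the lowest. It fell by 0.92 ± 0.16 in SAM (edgeR adjusted p = 0.00566) and by 0.50 ± 0.14 in VPR (adjusted p = 0.0445), and was not called in Suntag (-0.43, adjusted p = 0.142) or VP64 (-0.11). DESeq2 gave this cluster no adjusted p against the control either. The call in SAM ended without either SAM library (adjusted p up to 0.0661), and that in VPR was kept in 2 of 10 fits that left out a library and lost with the length trend removed (-0.29, adjusted p = 0.401). On log2(TPM + 1) with limma, of the calls against the control of the 8 clusters plotted by library, the fall of the 10203-nt cluster in VPR was the one that passed, and the adjusted p of the others ran up to 0.205.

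**Figure D3:**
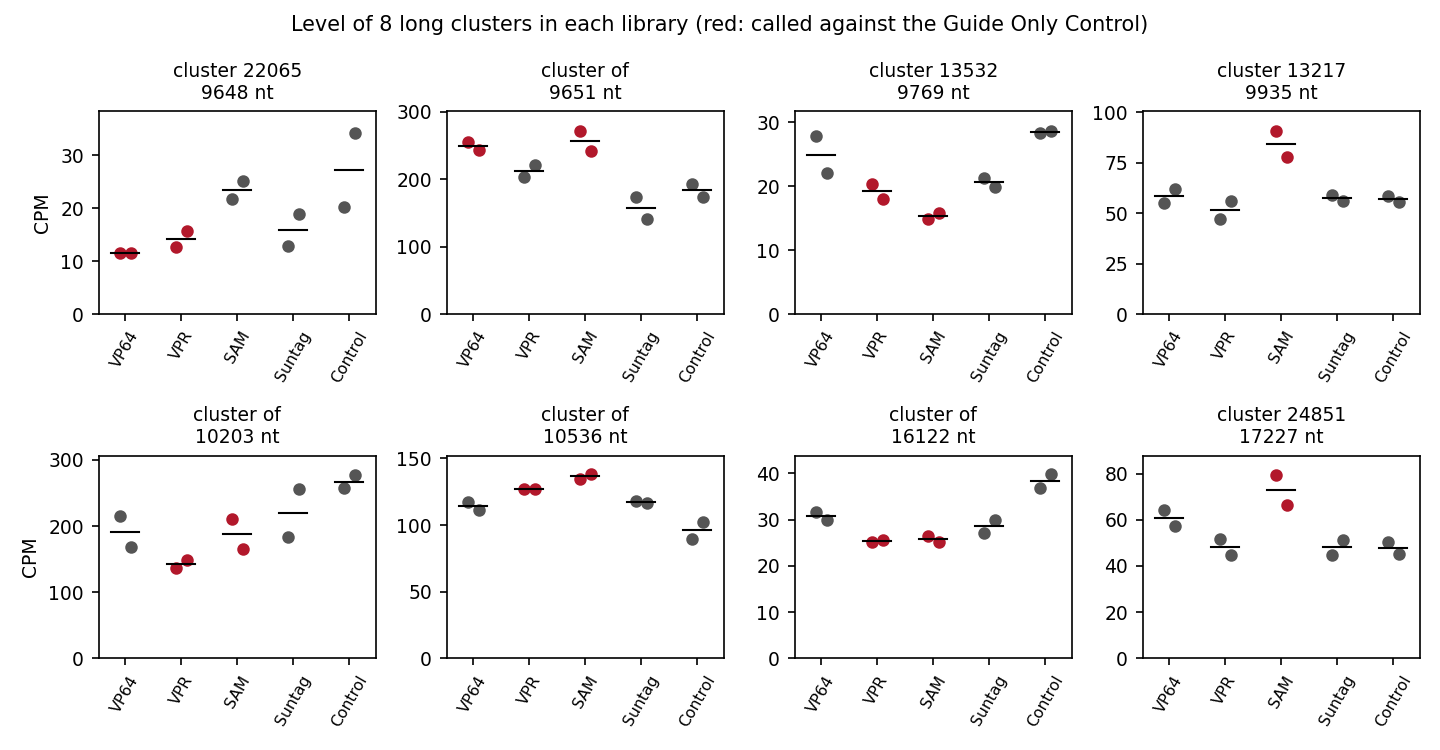
CPM in each library (y axis, from 0) of the 8 long clusters identified by number or called in at least 2 activators, by group (x axis, Control is the Guide Only Control); points are libraries, bars the mean of 2, and red marks groups called against the control. The 16122-nt cluster has all 8 activator libraries below both controls, and cluster 13217 departs from the controls in SAM with 90.8 and 77.9 CPM.

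VP64 and Suntag gave few or no calls among the long clusters. VP64 had 1 member called higher (0.353%, background 0.665%) and 1 lower (0.353%, background 0.151%), with a median log2 change of -0.02. The lower one was cluster 22065. The higher one, of 9651 nt and 3 transcripts with counts that were not whole, measured 255 and 243 CPM in VP64 libraries, 204 and 222 in VPR libraries, 272 and 242 in SAM libraries and 173 and 141 in Suntag libraries, against 193 and 174 in control libraries. VP64, VPR and SAM were above both controls, and Suntag lay below them, in replicate 1 by less than 1 CPM. Its rise was 0.51 ± 0.11 in VP64 (edgeR adjusted p = 0.0404) and 0.46 ± 0.11 in SAM (adjusted p = 0.0256), against values of 0.29 in VPR (adjusted p = 0.11) and -0.18 in Suntag (adjusted p = 0.434). The call in VP64 was kept in 4 of 10 fits that left out a library and the call in SAM in 6. The 2 calls of VP64 became 0 without either VP64 library or control replicate 2, 1 without either SAM library or control replicate 1, and 5 without either Suntag library.

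In Suntag 0 members passed the edgeR threshold, where 1.33% of all tested clusters did (0.989% higher and 0.34% lower). DESeq2, which gave no adjusted p to 180 of the members, also called 0. An unadjusted edgeR p under 0.05 was found for 47 of 283 members and for 2065 of all 13241 tested clusters, which are similar shares. The count became 5 without Suntag replicate 1 and 1 without Suntag replicate 2, either VPR library or control replicate 1. The median log2 change of the members was -0.12, compared with 0.001 over all tested clusters. Both Suntag libraries lay under both controls for 147 members (51.9%, background 25.8%) and above them for 14 (4.95%, background 18.5%). For VP64 these shares were 32.2% (background 32.3%) and 18.0% (background 17.1%), and for SAM 21.9% (background 23.4%) and 33.2% (background 29.9%). The next shorter class, of 6000 to 9000 nt, was near the members in Suntag too, with 43.8% under both controls, 6.56% above them and a median log2 change of -0.09. In total 42 members were called in at least 1 activator and 6 in at least 2. The matching shares over all tested clusters were not taken, so these 2 counts have no background. Each comparison used the same control libraries.

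**Figure D4:**
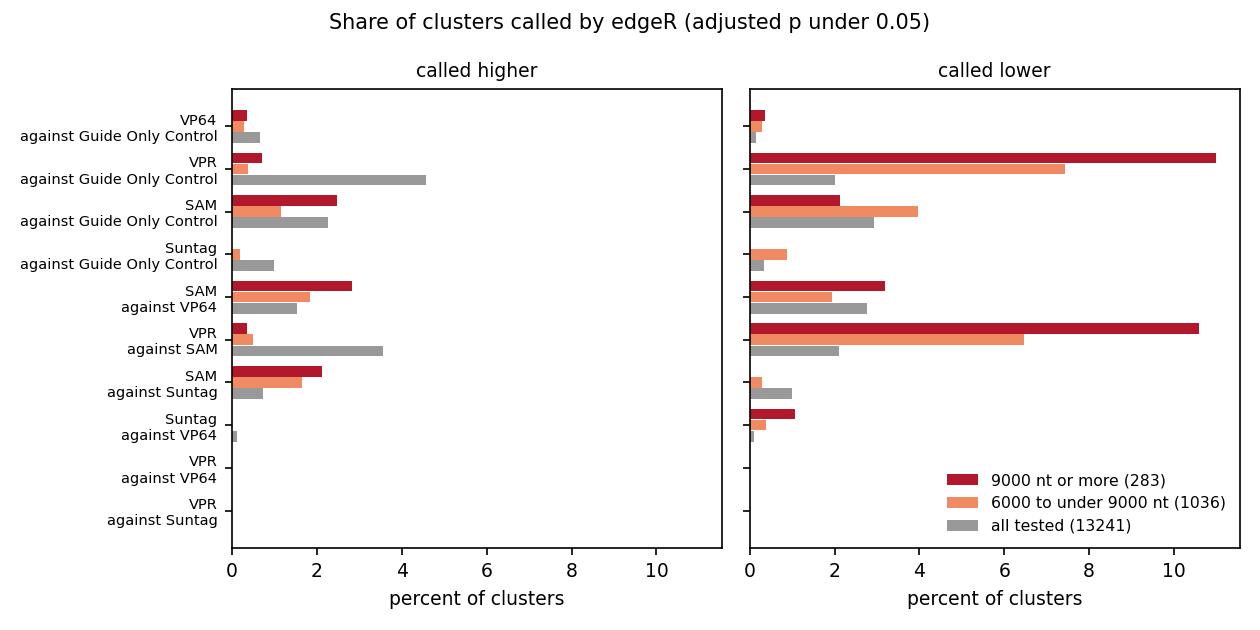
Percent of clusters called higher (left) or lower (right) by edgeR at an adjusted p under 0.05 (x axis) in each of 10 comparisons (y axis), for long clusters, clusters of 6000 to 9000 nt and all tested clusters. Long clusters reach 11.0% lower in VPR against the control and 10.6% lower in VPR against SAM, where all tested clusters have 2.02% and 2.11%.

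Set directly against each other in the fit to all 10 libraries, VPR and SAM gave the most calls among pairs of activators. In fits of the compared groups alone, SAM against VP64 had 33 calls and VPR against SAM 32, counts for which no share over all tested clusters is given. In VPR 30 members were called lower than in SAM (10.6%, background 2.11%) and 1 higher (0.353%, background 3.56%), with a median log2 difference of -0.20. The lower ones ranged from -1.68 to -0.34. Among them was the 11843-nt cluster whose length varied between libraries, at 1.58 and 1.34 CPM in VPR and 4.08 and 5.86 CPM in SAM (edgeR adjusted p = 0.0466). Its VPR libraries lay below the level limit of 2 CPM and its SAM libraries above it. Its place among the members thus drew on the group where it was high, and its difference is description only. The single higher one, of 15544 nt, had 9.70 and 11.2 CPM in VPR and 6.99 and 5.14 CPM in SAM, a difference of 0.91 ± 0.24 (adjusted p = 0.0364). Of 10 fits that left out a library, 4 kept the call of each of these clusters, and those without a VPR, SAM or VP64 library did not. The total of 31 became 0 without VPR replicate 1 or SAM replicate 1, 6 without SAM replicate 2, 20 without VPR replicate 2 and 17 without either VP64 library. With the length trend removed 12 members were called, 10 higher and 2 lower, 3 of them among the 31.

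A single transcript of 12844 nt, described after its values were seen, was 1 of 2 members called in all 3 pairs of activators that include SAM, the other being cluster 13217. The counts of the 12844-nt transcript were not whole. VP64 libraries had 13.3 and 12.9 CPM, VPR libraries 11.3 and 10.0, SAM libraries 29.0 and 21.4, and Suntag libraries 11.3 and 12.4, while Guide Only Control libraries had 11.6 and 18.6. Both SAM libraries lay above all 8 others, although SAM against the control was not called (0.67 ± 0.20, adjusted p = 0.065). The called differences were 0.84 ± 0.22 for SAM against VP64 (edgeR adjusted p = 0.0411), -1.13 ± 0.21 for VPR against SAM (adjusted p = 0.00886) and 1.02 ± 0.21 for SAM against Suntag (adjusted p = 0.03). These calls were kept in 6, 7 and 5 of 10 fits that left out a library.

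SAM against VP64 gave 8 members called higher (2.83%, background 1.53%) and 9 lower (3.18%, background 2.77%), around a median log2 difference of 0.02. The largest fall was again in the 15544-nt cluster, at 6.99 and 5.14 CPM in SAM and 14.9 and 13.0 CPM in VP64 (-1.32 ± 0.24, edgeR adjusted p = 0.00917), a call that ended without either SAM library or VP64 replicate 1. The 17 calls became 0 without VP64 replicate 1, 3 without VP64 replicate 2, 2 without SAM replicate 1 and 1 without SAM replicate 2. SAM against Suntag gave 6 calls, all higher (2.12%, background 0.717% higher and 1.0% lower), with a median of 0.13, and this count became 0 without SAM replicate 1, 1 without SAM replicate 2, Suntag replicate 2 or either VP64 library, and 12 without Suntag replicate 1. Suntag against VP64 gave 3 calls, all lower (1.06%, background 0.113% lower and 0.121% higher), with a median of -0.14, and these had 9651, 10296 and 10889 nt and differences of -0.69, -0.66 and -0.56 (adjusted p = 0.0161, 0.0161 and 0.0182). That count of 3 became 18 without Suntag replicate 1 and 0 without Suntag replicate 2 or either VP64 library.

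No member was called between VPR and VP64 or between VPR and Suntag in the fit to all 10 libraries. Between VPR and VP64 edgeR called 0 members (background 0.00755%), and DESeq2 called 1 but gave no adjusted p to 256. An unadjusted edgeR p under 0.05 was found for 83 of 283 members and for 1142 of all 13241 tested clusters. The median difference of the members was -0.21, with 239 of 283 below 0. Between VPR and Suntag edgeR also called 0 members (background 0.0%), and DESeq2 called 1 but gave no adjusted p to 262. Here 47 of 283 members and 1760 of all 13241 tested clusters had an unadjusted edgeR p under 0.05, and the median difference of the members was -0.10. The count of VPR against Suntag became 7 without Suntag replicate 1. A p that misses the threshold does not show that these activators act alike on the long clusters. A permutation of 2 libraries against 2 cannot give a two-sided p below 0.333, so each of these calls rests on the model fitted to all clusters.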

How the data were processed

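The authors deposited 1 table per library with estimated counts (the expected count of each gene cluster, which need not be whole) and TPM, as named per the file headers. RSEM 1.2.1 and hg19 are the tool and build named per the submitters' processing notes. The annotation was not given in the sources read. The library preparation in the labels' protocols does not mark the strand, so overlapping and antisense genes cannot be told apart. CPM were computed as 1000000 times the expected count over the library's sum. The deposited TPM values were used for levels per length and, as log2(TPM + 1), in 1 alternative.

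After rounding, counts went through filterByExpr and TMM in edgeR 4.0.16 under R 4.3.3. All 10 libraries entered a quasi-likelihood fit with 1 coefficient a group, leaving 5 residual degrees of freedom, and each comparison was an F test in it. P-values were adjusted by Benjamini-Hochberg over all 13241 tested clusters in each of 10 comparisons, with a threshold of 0.05. SE is the log2 change divided by the square root of F. The procedure was tested on simulated data. The clusters identified by number are the 2 largest called changes in each direction against the control, both libraries lying beyond both controls, and others are given by their length, level or calls in at least 2 activators. Of 82960 transcript identifiers 1 was found in the name tables at hand, and none of a member, so no gene lists or sequences are given. Members, lists and tests were chosen with earlier results of these data known.

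Alternatives were RLE factors, DESeq2 1.42.0, no filter, the compared groups alone, a replicate block, each library left out, the trend with length removed (loess), limma 3.58.1 on log2(TPM + 1), and other pseudocounts and limits of length and level.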

Additional observations from a re-analysis of the deposited data

Results flagged for a closer look

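Of the 4 clusters identified by number, 3 differed between activators when these were compared directly, in the fit whose estimate of the spread also draws on the control libraries. All 3 were picked by the size of their called change in SAM against the control. The same SAM libraries enter every difference given here, so these differences add no independent support. Cluster 24851 was lower in VPR than in SAM by a log2 difference of -0.50 ± 0.12 (edgeR adjusted p = 0.0303) and higher in SAM than in Suntag by 0.53 ± 0.12 (adjusted p = 0.0422). Cluster 13217 was higher in SAM than in VP64 by 0.44 ± 0.12 (edgeR adjusted p = 0.0462), lower in VPR than in SAM by -0.59 ± 0.11 (adjusted p = 0.0116) and higher in SAM than in Suntag by 0.48 ± 0.11 (adjusted p = 0.0451). Cluster 13532 was lower in SAM than in VP64 by -0.81 ± 0.17 (edgeR adjusted p = 0.0167). In 10 fits that each left out a library, the calls of cluster 24851 were kept 6 times when VPR and SAM were compared and 2 times when SAM was compared with Suntag. Those of cluster 13217 were kept 8 times between VPR and SAM, 4 times between SAM and VP64 and 3 times between SAM and Suntag, and the call of cluster 13532 was kept 7 times. Without either control library, the calls of SAM against Suntag in clusters 24851 and 13217 and of SAM against VP64 in cluster 13217 ended. In each of these pairs both libraries of one activator lay on the same side of both libraries of the other. Every member called against the control showed the same, such as 31 of 31 lower in VPR, so it adds no support to a call.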

How the results depend on the processing

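Shares over all tested clusters are given only for the first edgeR fit, so counts in the other fits, here and above, have no background. Counts of called long clusters depended on the tool and the libraries more than on the scaling factors. With DESeq2 they were 18 for VPR and 6 for SAM against the Guide Only Control, 11 for VPR against SAM, 9 for Suntag against VP64, 6 for SAM against VP64 and 1 each for VPR against VP64 and against Suntag. DESeq2 gave no adjusted p to 124 to 262 of the 283 members, depending on the comparison. Without the filter on low counts they were 7 for VP64, 22 for SAM and 9 for Suntag against the control, 14 for SAM against Suntag, 26 for SAM against VP64, 21 for Suntag against VP64, 6 for VPR against VP64 and 8 for VPR against Suntag. With the compared groups alone they were 7 for VP64 against the control, 33 for SAM against VP64, 0 for SAM against Suntag and 4 for VPR against VP64. With the length trend removed they were 1 for VP64 and 3 for VPR against the control, 3 for SAM against Suntag and 12 for VPR against SAM, where the median change of the members is near 0 by construction. With limma on log2(TPM + 1) they were 0 for VP64, 9 for VPR and 0 for SAM against the control, 8 for VPR against SAM, 0 for Suntag against VP64, and 1 for SAM against either VP64 or Suntag. That scale moved the median of all tested clusters to -0.17 in VPR against the control, where the members had -0.31. The cause of these differences in counts was not tested.

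Leaving out 1 library, the counts ranged from 0 to 5 for VP64, 3 to 43 for VPR, 0 to 18 for SAM and 0 to 5 for Suntag against the control. They ranged from 0 to 12 for SAM against Suntag, 0 to 23 for SAM against VP64, 0 to 18 for Suntag against VP64, 0 to 43 for VPR against SAM and 0 to 7 for VPR against Suntag, and stayed at 0 for VPR against VP64. The median change of the members in VPR against the control ran from -0.27 to -0.16 in these fits. Same-numbered libraries did not deviate together (correlations from -0.07 to 0.06), so no large effect shared by replicate number was visible. Such correlations cannot show whether same-numbered libraries were prepared together. With the replicate number as a block the counts were 30 for VPR, 8 for SAM, 3 for VP64 and 0 for Suntag against the control.

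With TMM factors the median level of the members less that of the control was 0.005 for VP64, for VPR -0.20 and for Suntag -0.118, and with RLE factors 0.004, -0.197 and -0.122 for the same groups. It was -0.085 in VP64 with a limit of 7000 nt, -0.192 in Suntag with a limit of 12000 nt, and -0.017 in SAM and -0.221 in Suntag over members with whole counts. Leaving out 1 library gave -0.083 to -0.028 for VP64, -0.340 to -0.207 for VPR, 0.001 to 0.071 for SAM and -0.162 to -0.141 for Suntag. Members near 2 CPM hold few fragments at these depths, so modest changes there could not have been called.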
